A study of Homo sapiens with 6 samples.

Results

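The mature miRNAs of the miR-26 and miR-101 families were followed by small RNA sequencing in MDA-MB-231, an established human cell line of triple negative breast cancer (TNBC). They were taken by name from the deposited table, as the 6 rows hsa-miR-26a-5p, hsa-miR-26a-2-3p, hsa-miR-26b-5p, hsa-miR-26b-3p, hsa-miR-101-3p and hsa-miR-101-5p of 1582 rows in all. The control group consisted of 3 libraries of non-transfected cells, and the other group of 3 libraries of the same cells after lentiviral delivery of RARαS77A. This is a form of the retinoic acid receptor α in which serine 77 is replaced by alanine, so that this residue cannot be phosphorylated. No library of cells with an empty vector or with wild-type RARα was used here, so the mutant receptor and its delivery cannot be told apart. Nothing in the labels ties the replicates of a group to separate cultures, and the p-values then measure only the spread between these libraries, which may be technical.

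A miRNA precursor is a hairpin whose 5′ and 3′ sides give a 5p and a 3p strand. One of them, the guide strand, is usually kept in an Argonaute protein and pairs with mRNAs mainly through its seed, while the other, the passenger strand, is mostly degraded. The guide strands miR-26a-5p, miR-26b-5p and miR-101-3p are known as repressors of EZH2, the methyltransferase subunit of Polycomb repressive complex 2 (PRC2), which places the repressive methyl marks on lysine 27 of histone H3. Both families are often described as tumor suppressors that are lost in cancers with high EZH2. Neither EZH2 nor any other target was measured in these libraries.

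The sequences of the 6 members are shown because reads were counted by them and because the seed largely sets which mRNAs a guide strand pairs with. They are printed 5′ to 3′ from RefSeq (GRCh38.p14), with the seed, bases 2 to 8, in capitals. The first 3 are the guide strands.
hsa-miR-26a-5p: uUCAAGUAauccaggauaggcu
hsa-miR-26b-5p: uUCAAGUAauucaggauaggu
hsa-miR-101-3p: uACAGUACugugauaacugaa
hsa-miR-26a-2-3p: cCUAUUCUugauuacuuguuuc
hsa-miR-26b-3p: cCUGUUCUccauuacuuggcu
hsa-miR-101-5p: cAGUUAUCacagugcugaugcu

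The guide strands of miR-26a and miR-26b have the same seed. Over the 21 bases that can be compared they were identical at 19 and differed by C11U and C21U, with the base of miR-26a-5p first and positions counted from the 5′ end. The seed of miR-101-3p is a different one. In RefSeq, hsa-miR-1297 and hsa-miR-4465 also carry the miR-26 seed, and neither had a row in the table used here. hsa-miR-144-3p shares bases 2 to 7 with miR-101-3p and had 4 reads over the 6 libraries.

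miR-26a-5p is encoded at 2 loci with the same mature sequence, so its reads cannot be assigned to one of them. MIR26A1 lies at chr3:37969404-37969480 on the plus strand in an intron of CTDSPL, and MIR26A2 at chr12:57824609-57824692 on the minus strand in an intron of CTDSP2. MIR26B lies at chr2:218402646-218402722 on the plus strand in an intron of CTDSP1. The 3 host genes encode related small phosphatases of the C-terminal domain of RNA polymerase II, and each precursor is on the strand of its host. miR-101-3p is likewise encoded at 2 loci, MIR101-1 at chr1:65058434-65058508 on the minus strand, with no overlapping gene in GENCODE 29, and MIR101-2 at chr9:4850297-4850375 on the plus strand in an intron of RCL1. MIR101-2 also overlaps an exon of the annotated antisense gene AL158147.1.

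The passenger strands do differ between loci. miR-26a-2-3p and miR-101-5p are members, and their counterparts from the other locus are shown because they are read beside them below.
hsa-miR-26a-1-3p: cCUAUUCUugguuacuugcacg
hsa-miR-101-2-5p: uCGGUUAUcaugguaccgaugc

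The libraries held between 9019266 and 11338580 counts. The markers chosen for the line, miR-21-5p, miR-100-5p, miR-221-3p and miR-222-3p, together took 607184 to 651674 TPM in the control and 674914 to 706284 TPM in the RARαS77A libraries, where the deposited TPM is the count scaled to the library's total of counted miRNA reads, without a length term. The markers of epithelial lines, miR-141-3p, miR-200c-3p and miR-205-5p, summed to 38.5 to 41.5 TPM in control and to 27.4 to 35.9 TPM in RARαS77A libraries. Both sums separated by group in TPM. With TMM, 2 of the 4 line markers, miR-21-5p and miR-100-5p, were called higher by edgeR. Neither of the epithelial markers that were tested was called. The sum of the line markers hid miR-221-3p, which went the other way. It had 114288 to 144030 counts in control and 53052 to 78704 in RARαS77A libraries. With TMM its log2 fold change was -0.32 without overlap of the groups and without a call (adjusted p = 0.0847, edgeR). miR-222-3p, at 0.39, was not called either (adjusted p = 0.0541, edgeR). Control replicate 3 stood apart from the other controls. Across miRNAs, which are not independent replicates, its log2 CPM correlated at 0.974 with control replicates 1 and 2 and at 0.975 with the RARαS77A libraries. Control replicates 1 and 2 correlated at 0.986 with each other, and the RARαS77A libraries at a mean of 0.995 among themselves. By these values control replicate 3 lay about as far from the RARαS77A libraries as from the other controls. Control replicate 3 is a control by its label. Its place in the group was not tested, so each control mean includes a library in doubt. The miRNAs did not all place it alike. For let-7b-5p it stood at 2492 TPM, near the 2393 and 2757 TPM of control replicates 1 and 2. The RARαS77A libraries had 1057 to 1201 TPM of this miRNA. A list of 6 miRNAs of pluripotent stem cells summed to 0.185 and 0.0882 TPM in control replicates 1 and 2, where 4 of the 6 were at 0 in both libraries, but to 386 TPM in control replicate 3 and to 254 to 262 TPM in the RARαS77A libraries. A list of 3 muscle miRNAs summed to 91.3 TPM in control replicate 1 and to 2.65 to 4.88 TPM in the other libraries, and the endocrine miRNA miR-375-3p stood at 76.7 TPM in control replicate 2 and 1.76 to 5.99 TPM elsewhere. miR-122-5p of liver ranged from 8.73 to 53.6 TPM, with overlap of the groups. The 5 blood miRNAs summed to 32.9 to 43.2 TPM in control and to 23.5 to 32.6 TPM in RARαS77A libraries, without overlap. The part of these miRNAs in the results below was not tested.

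The 6 members together made up 1.52% ± 0.154 of the control counts and 1.36% ± 0.115 of the RARαS77A counts (SD, n = 3 each). miR-26a-5p supplied most of them, with 85.4% to 88.1% of the members' reads in the control libraries and 89.1% to 89.9% in the RARαS77A libraries. By count it ranked 9 to 12 among the 1582 rows. miR-26b-5p ranked 42 to 46 and miR-101-3p 66 to 86. The passenger strands lay far below, with ranks of 299 to 381 for miR-26a-2-3p, 323 to 473 for miR-26b-3p and, in control replicate 1, 586 for miR-101-5p. Compared as counts of strands of like length, the guide strands kept in every library the order miR-26a-5p, miR-26b-5p, miR-101-3p, and their ranges did not touch.

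Levels were compared as CPM scaled by TMM, a factor per library that assumes that most miRNAs do not differ. These factors averaged 1.22 in the controls and 0.819 in the RARαS77A libraries, so that the scaling raises every RARαS77A value relative to the share of counts. Over the 506 tested miRNAs the log2 fold change had a median of 0.06 with TMM and -0.51 with library totals alone. Directions are therefore given on both scales, and ratios within a library, in which the scaling cancels, follow. With TMM, edgeR called 118 of 506 miRNAs (23.3%) higher and 107 (21.1%) lower in RARαS77A cells at an adjusted p under 0.05, and in 294 (58.1%) the groups did not overlap. Of the 6 members, 5 passed the filter on low counts. miR-26a-5p was called higher, miR-26a-2-3p and miR-26b-3p were called lower, and miR-26b-5p and miR-101-3p were not called. The groups did not overlap in the 3 called members. These counts over the members that passed are given as a description only.

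miR-26a-5p, the most abundant member, had TMM CPM of 10255, 9932 and 12259 in control replicates 1 to 3 and of 13674, 16168 and 14801 in the RARαS77A libraries. All RARαS77A libraries lay above all controls, and control replicate 3 was the highest control. In the quasi-likelihood test of edgeR the log2 fold change was 0.46 (standard error 0.12, 95% interval 0.18 to 0.74, Benjamini-Hochberg adjusted p = 0.0175), which is 1.38-fold. The exact permutation test of the 6 values (two-sided) gave p = 0.1, the smallest that 3 against 3 libraries allow. Without control replicate 3 the log2 fold change was 0.50 (adjusted p = 0.00461, edgeR). The call was lost without the filter on low counts, at 0.27 (adjusted p = 0.104, edgeR). With a batch term that puts control replicate 3 with the RARαS77A libraries the log2 fold change was 0.28. No label names such a batch, and the term leaves control replicate 3 as the only control compared with RARαS77A. On the scale of library totals the direction turned. The TPM were 11833, 12885 and 14875 in control and 11087, 13222 and 12277 in RARαS77A libraries, which overlapped, and the log2 fold change was -0.11 (adjusted p = 0.458, edgeR). In bulk RNA a change in the number of cells that express a miRNA and a change in the amount per cell cannot be told apart.

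miR-26b-5p, the guide strand with the same seed, had TMM CPM of 1334, 1217 and 1364 in control and of 1226, 1418 and 1274 in RARαS77A libraries. The groups overlapped fully. RARαS77A differed from control by 0.0014 on the log2 scale (standard error 0.090, 95% interval -0.21 to 0.21, adjusted p = 0.994, edgeR). On library totals it was lower in all RARαS77A libraries, with 994, 1160 and 1057 TPM against 1539, 1579 and 1655 TPM in control. There the log2 fold change was -0.57 (adjusted p = 0.00183, edgeR), in a setting in which 213 of 506 miRNAs (42.1%) were called lower. Without control replicate 3, with TMM, it was -0.021 (adjusted p = 0.883, edgeR).

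miR-101-3p had TMM CPM of 415, 293 and 288 in control and of 415, 387 and 538 in RARαS77A libraries. Control replicate 1 was as high as the RARαS77A replicate 1, so the groups overlapped. The log2 fold change was 0.43 (standard error 0.19, 95% interval -0.0055 to 0.86) and missed the threshold (adjusted p = 0.0987, edgeR). It passed without control replicate 1, at 0.62 (adjusted p = 0.0279, edgeR), and with upper quartile scaling, at 0.66 (adjusted p = 0.0128, edgeR). Without control replicate 3 it was 0.29 (adjusted p = 0.225, edgeR), and on library totals -0.14 (adjusted p = 0.538, edgeR). The spread between libraries of 1 group was thus as large as the difference.

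**Figure D1:**
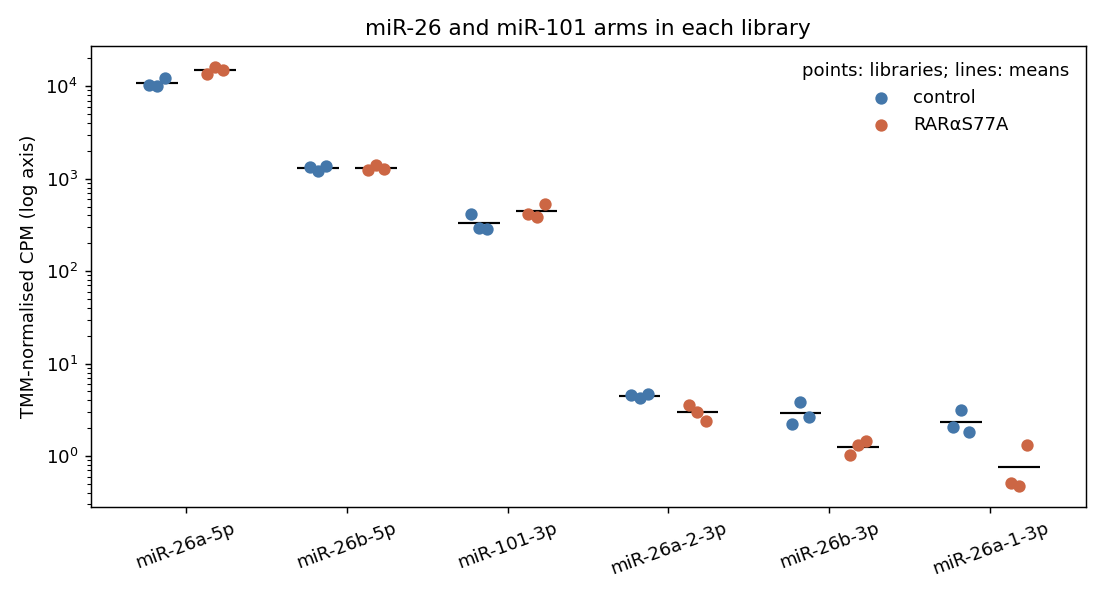
TMM-normalised CPM on a log axis for the 5 tested members and for miR-26a-1-3p, with 1 point per library (control blue, RARαS77A orange) and a line at each mean of 3. miR-26a-5p lies highest and separates upwards, miR-26b-5p and miR-101-3p overlap, and the 3 passenger strands of miR-26 lie under 5 CPM and separate downwards. Of these strands, miR-26b-3p and miR-26a-1-3p passed the filter on low counts through their controls.

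The ratio of the miR-26 guide strands does not depend on the scaling. In control replicates 1 to 3 there were 7.69, 8.16 and 8.99 reads of miR-26a-5p for each read of miR-26b-5p, and in the RARαS77A libraries 11.2, 11.4 and 11.6. Every RARαS77A library lay above every control, and the means were 8.28 ± 0.658 and 11.4 ± 0.234 (SD, n = 3 each), a 1.38-fold higher ratio. The exact permutation test (two-sided) gave p = 0.1, the smallest it can give here. Leaving out single libraries kept the log2 difference between 0.41 and 0.52, and it was 0.52 without control replicate 3, the control nearest to the RARαS77A group. Within the miR-26 seed family, miR-26a-5p thus held a larger share in all 3 RARαS77A libraries. How often ratios between guide strands of other miRNAs separate in these libraries was not tested. For single miRNAs with TMM, the groups did not overlap in 294 of 506 (58.1%), so separation by group was common. The separation of this ratio is therefore given as a description only.

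The ratio of miR-26a-5p to miR-101-3p was 24.7, 33.9 and 42.6 in control and 32.9, 41.8 and 27.5 in RARαS77A libraries. The groups overlapped, with means of 33.7 ± 8.94 and 34.1 ± 7.23 (SD, n = 3 each; exact permutation test, two-sided, p = 1). The log2 difference of 0.03 changed sign with the library left out, from -0.18 without control replicate 1 to 0.21 without control replicate 3. No shift between the families was detectable at this spread. Of 5 ratios planned, that of miR-101-3p to miR-101-5p was not computed because of counts of 0, and none of the other 4 could reach 0.05 before or after adjustment, since 0.1 is the smallest p.

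**Figure D2:**
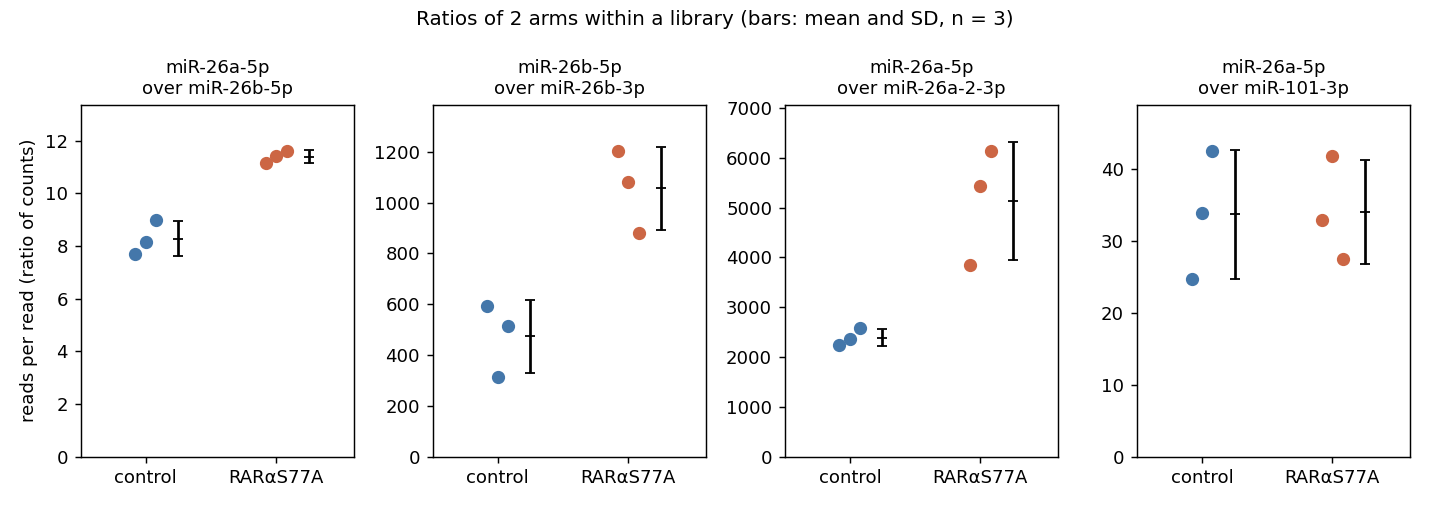
Ratios of the counts of 2 strands within each library, on linear axes from 0, with 1 point per library and the mean ± SD of 3. The RARαS77A points lie above all controls in the first 3 panels, and both groups overlap in the ratio of miR-26a-5p to miR-101-3p.

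The tested passenger strands of miR-26 were called lower with TMM. Of these, miR-26b-3p and miR-26a-1-3p did not reach the filter's CPM in all RARαS77A libraries, so their controls carried them into the test. Such a selection favours a lower call, and these calls are given as a description. miR-26b-3p, the passenger strand of MIR26B, had 28, 57 and 29 counts in control and 8, 11 and 12 in RARαS77A libraries, which is 2.25, 3.88 and 2.65 against 1.02, 1.31 and 1.44 TMM CPM. The groups did not overlap. The log2 fold change was -1.21 (standard error 0.31, 95% interval -1.95 to -0.48, adjusted p = 0.0168, edgeR), so that the level fell by 56.9%. Without control replicate 3 it was -1.34 (adjusted p = 0.0143, edgeR), but without control replicate 2, the highest library, it was -0.92 and missed the threshold (adjusted p = 0.0669, edgeR). It also missed the threshold with DESeq2, at -1.26, and with the batch term, at -1.06 (adjusted p = 0.116, edgeR). On library totals the log2 fold change was -1.80 (adjusted p = 0.00391, edgeR). The filter asked for 0.986 CPM in 3 libraries, which 3 control and 2 RARαS77A libraries reached, so the row would have passed on its controls alone.

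miR-26a-2-3p, the passenger strand of MIR26A2, had 57, 62 and 52 counts in control and 28, 25 and 20 in RARαS77A libraries. In TMM CPM these were 4.57, 4.22 and 4.75 against 3.56, 2.98 and 2.41, without overlap. The log2 fold change was -0.60 (standard error 0.19, 95% interval -1.05 to -0.14, adjusted p = 0.0401, edgeR), a level that fell by 33.8%. The call was weak. It was lost without control replicate 1, 2 or 3 and without RARαS77A replicate 2 or 3, with log2 fold changes of -0.59, -0.62, -0.61, -0.56 and -0.45, and also with the replicate block at -0.60 (adjusted p = 0.0796, edgeR), upper quartile scaling, DESeq2, limma-voom and the batch term. On library totals, by contrast, it was -1.17 (adjusted p = 0.00206, edgeR).

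The strand from the other miR-26a locus, miR-26a-1-3p, is no member and had 26, 46 and 20 counts in control and 4, 4 and 11 in RARαS77A libraries. The groups did not overlap, and edgeR gave a log2 fold change of -1.60 with a standard error of 0.46 (adjusted p = 0.0253). It reached the filter's CPM in 3 control and 1 RARαS77A libraries, and so was tested because it was high in the controls. Without control replicate 3 it was -1.80 (adjusted p = 0.0120, edgeR). The call was lost without control replicate 2 (-1.31), without RARαS77A replicate 1 (-1.44) or 2 (-1.34), with the batch term (-1.23), and with the replicate block (-1.62, adjusted p = 0.0573, edgeR). On library totals the log2 fold change was -2.18 (adjusted p = 0.00713, edgeR). Of the passenger reads of miR-26a, miR-26a-1-3p made up 31.3%, 42.6% and 27.8% in control and 12.5%, 13.8% and 35.5% in RARαS77A libraries. The groups overlapped in this share, so no difference between the loci was detectable at 29 to 108 such reads per library.

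Set against their guide strands, the passenger strands separated by group at both kinds of locus. Of the reads of MIR26B, the 3p strand made up 0.168%, 0.317% and 0.194% in control and 0.0829%, 0.0923% and 0.113% in RARαS77A libraries. For MIR26A1 and MIR26A2 together the 3p share was 0.0649%, 0.0739% and 0.0536% against 0.0298%, 0.0214% and 0.0252%. All RARαS77A libraries were below all controls in both shares. Expressed as a ratio, there were 474 ± 144 reads of miR-26b-5p per read of miR-26b-3p in control and 1056 ± 163 in RARαS77A cells (SD, n = 3 each), a 2.29-fold difference (exact permutation test, two-sided, p = 0.1). For miR-26a-5p per miR-26a-2-3p the ratio was 2393 ± 172 and 5139 ± 1181 (SD, n = 3 each), a 2.11-fold difference (exact permutation test, two-sided, p = 0.1). Left out one at a time, no library turned either ratio, with log2 differences of 0.92 to 1.38 and of 0.93 to 1.27.

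A lower share of the less abundant strand was common in the RARαS77A libraries. Among 120 precursor names with both strands tested, a set formed after the members had been seen, the ratio of the minor to the major strand was lower in all RARαS77A libraries than in all controls in 52 pairs (43.3%) and higher in 19, while 49 overlapped. The median log2 change over the 120 pairs was -0.36. miR-26b, the only member pair among them by name, stood at the 25th percentile. Without control replicate 3, 57 pairs were lower, 21 higher and 42 overlapped, and miR-26b was again at the 25th percentile. Among the 80 pairs whose minor strand had a mean count under 200, 29 were lower, 11 were higher and 40 overlapped, and miR-26b stood at the 23.8th percentile. A ratio that separated downwards, as for miR-26b, was therefore found in many other pairs too. Only strands that passed the filter on low counts were paired. A low minor strand could thus enter through a single group, as miR-26b-3p could through its controls, and the effect of this on the counts was not tested.

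**Figure D3:**
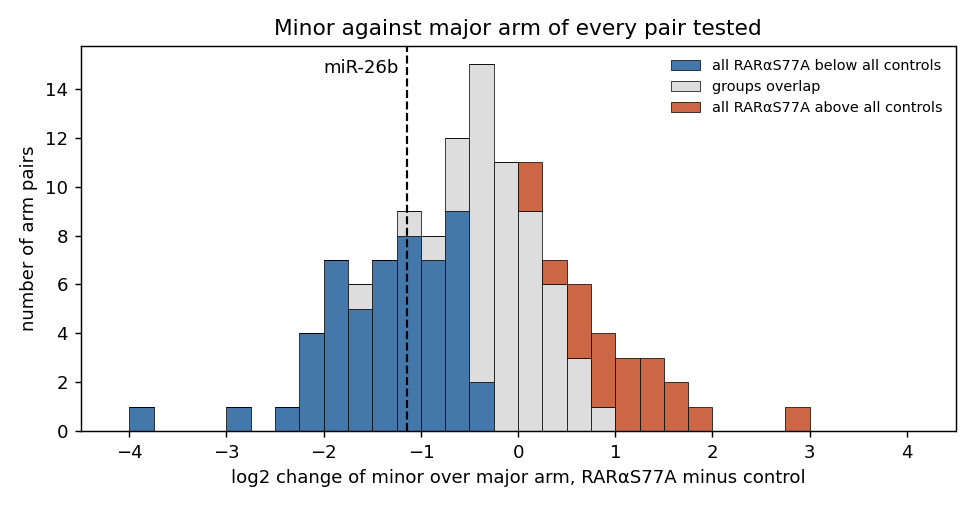
Number of strand pairs by the log2 change of the minor over the major strand (RARαS77A minus control), in bins of 0.25, coloured by whether the groups separate. The dashed line marks miR-26b, at the 25th percentile of 120 pairs whose median is -0.36.

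The passenger strands of miR-101 were almost unread. miR-101-5p, from MIR101-1, had 5, 1 and 1 counts in control and 3, 0 and 0 in RARαS77A libraries. It was below the filter and was not tested. The sums of 7 and 3 counts have exact 95% Poisson intervals of 2.81 to 14.4 and 0.619 to 8.77, which overlap and cover counting error only. The counts of 0 allow up to 3 counts, or 0.292 and 0.300 TPM in RARαS77A replicates 2 and 3. miR-101-2-5p, from MIR101-2, had 1, 0 and 0 counts against 1, 0 and 1. With so few reads, neither strand shows which of the loci gave the miR-101-3p reads.

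**Figure D4:**
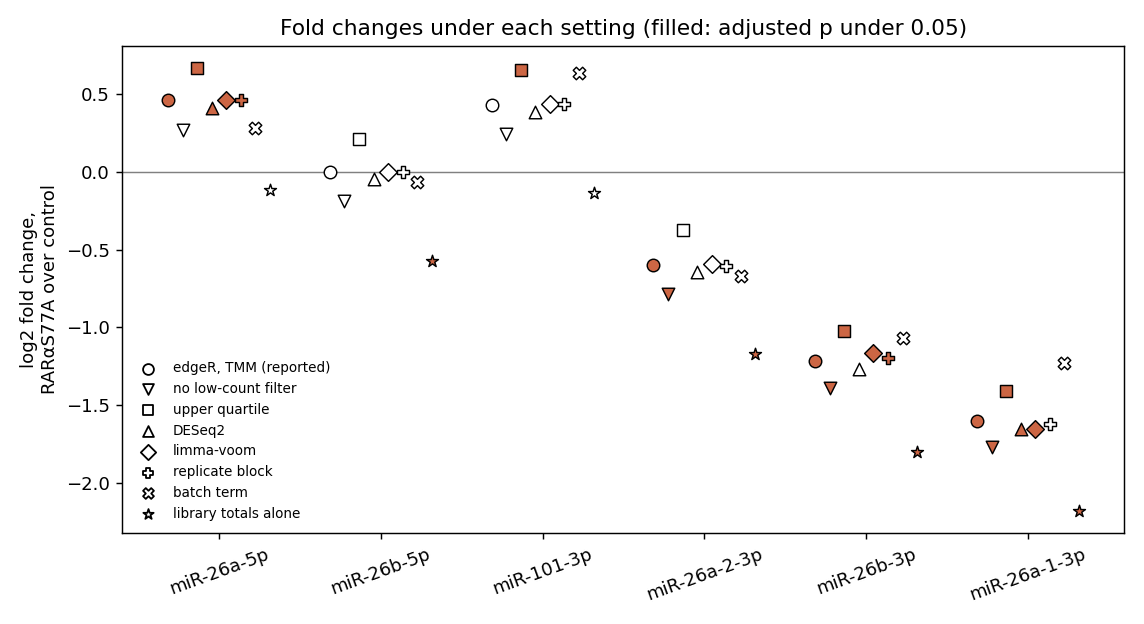
Log2 fold change of each miRNA (RARαS77A over control) under 8 settings, with a filled symbol where the adjusted p was under 0.05. With library totals alone (stars) all 3 guide strands lie below 0 and miR-26b-5p is called lower. In the other settings miR-26a-5p and miR-101-3p lie above 0. miR-26b-5p lies near 0 or above, but at -0.19 without the filter, and slightly below 0 with DESeq2 and the batch term. The passenger strands lie below 0 in every setting.

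Other miRNAs described as repressors of EZH2 or of another PRC2 subunit were read as a list of 15 with the members left out, of which 13 had a row and 10 were tested. With TMM, 3 were called higher and 1 lower, against the 23.3% and 21.1% of all tested miRNAs, and the median log2 fold change of the list was 0.10 beside 0.06 for all. With 10 miRNAs tested, these counts cannot show whether the list differs from the background, and this was not tested. Without control replicate 3 edgeR again called 3 higher and 1 lower, beside 125 and 116 of all 525 miRNAs tested there. let-7e-5p had TMM CPM of 846, 1056 and 1135 in control and 1259, 1659 and 1570 in RARαS77A libraries, or 0.56 in log2 (adjusted p = 0.0169, edgeR). miR-30d-5p, nearly as abundant as miR-26a-5p, had 10635, 9026 and 10971 against 14526, 15657 and 14904, also 0.56 (adjusted p = 0.00454, edgeR). miR-200b-3p, an epithelial miRNA, had 37.3, 35.5 and 40.4 against 53.3, 54.8 and 51.3, at 0.49 (adjusted p = 0.0241, edgeR). In these 3, as in miR-26a-5p, the groups did not overlap with TMM but did overlap in TPM. let-7b-5p, the member of the list called lower, had 2074, 2125 and 2054 TMM CPM in control and 1304, 1468 and 1400 in RARαS77A libraries, or -0.58 in log2 (adjusted p = 0.00105, edgeR), and it was lower in TPM as well. miR-98-5p had a log2 fold change of -0.32 without overlap of the groups and missed the threshold (adjusted p = 0.0676, edgeR). let-7a-5p, let-7c-5p, miR-25-3p and miR-138-5p, with log2 fold changes from -0.21 to 0.14, were not called, nor was miR-217-5p at 0.48 with a wide 95% interval of -0.71 to 1.66. Members of the let-7 family differ by few bases, and the treatment of reads that match several of them is not stated. On library totals, edgeR called 6 of the 10 lower and 0 higher, and at an unadjusted p under 0.05 likewise 0 were higher. Of all tested miRNAs, 42.1% were lower and 10.1% higher in that setting. With the batch term edgeR called 0 of the list higher, or 1 at an unadjusted p under 0.05, and 1 lower, beside 15% higher and 10.9% lower of all. DESeq2, with its own size factors and no batch term, called 3 of the list higher and 2 lower, beside 21.3% and 21.7% of all.

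**Figure D5:**
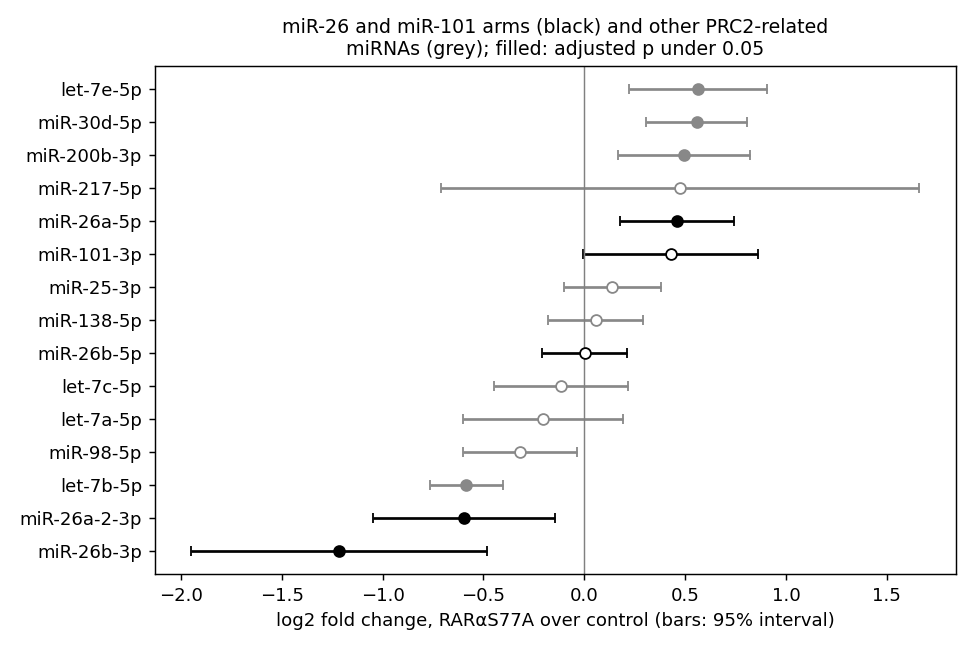
Log2 fold change with its 95% interval for the tested members (black) and the tested miRNAs of the PRC2 list (grey), sorted by value, with filled points where the adjusted p was under 0.05. Guide strands and listed miRNAs lie between -0.58 and 0.56, and miR-26b-3p is lowest at -1.21.

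The 3 miRNAs most like each guide strand over the 6 libraries were different ones for miR-26a-5p, miR-26b-5p and miR-101-3p. Of 312 candidates with a mean count of at least 50, log2 TMM CPM was most like that of miR-26a-5p for miR-629-5p (Pearson r = 0.990), miR-224-5p (r = 0.983) and let-7f-5p (r = 0.970). For miR-26b-5p these were miR-30c-5p (r = 0.967), miR-1283 (r = 0.866) and let-7g-5p (r = 0.860). For miR-101-3p they were miR-34c-5p (r = 0.846), miR-342-3p (r = 0.819) and miR-24-1-5p (r = 0.797). Between miR-26a-5p and miR-26b-5p r was 0.38, and between miR-26a-5p and miR-101-3p 0.51. These values describe 6 libraries that share the scaling and the split between the groups, and they carry no test.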

How the data were processed

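Total RNA was extracted with Trizol, and small RNA libraries were made with the NEBNext Multiplex Small RNA set and sequenced on an Illumina instrument. The authors deposited 1 table with the raw read count of each mature miRNA in each of 6 libraries, not normalized. The deposited TPM equals each count divided by the column total, with no length term (largest difference 4.74e-05). The submitters' processing notes name Bowtie. Its version, the reference, the use of strand and the treatment of multiply matching reads are not given in the sources read for this work.

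Counts were scaled by TMM, filtered with filterByExpr (minimum count of 10) and tested over 506 miRNAs with glmQLFit and glmQLFTest of edgeR 4.0.16 in R 4.3.3, with Benjamini-Hochberg adjusted p under 0.05. The standard error is the log2 fold change divided by the root of F. Alternatives used no filter, library totals, upper quartile factors, DESeq2 1.42.0, limma 3.58.1 (voom), a replicate block, a batch term joining control replicate 3 to the RARαS77A libraries, and each library left out. Single values were compared by exact two-sided permutation of log2(CPM + 1) or of log2 ratios. The scripts were tested on simulated data.

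Depth was 9019266 to 11338580 counts. No library was a copy of another of its group (chi-square per degree of freedom of 73.9 to 323). Pairs of libraries across the groups were not compared in this way. No row had counts within 5% of a member's in all libraries. Replicate numbers did not pair the libraries. Strand pairs were compared after adding 0.5 to each count, also without control replicate 3, both chosen after the data had been seen.

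The miRNAs named are the members, the other strands of their precursors, their seed matches, listed PRC2-related miRNAs that were called or had a mean count of at least 1000, and the 3 miRNAs most like each guide strand. miR-217-5p, the lists of markers and the strand pairs stand outside that rule. Members, lists and tests were chosen with earlier results of these data known. Of 1498 human names, 1342 matched the RefSeq table (GRCh38.p14). Host genes are from GENCODE 29.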

Additional observations from a re-analysis of the deposited data

How the results depend on the processing

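The signs of the guide strands depended on the scaling, while the tested passenger strands of miR-26 kept a negative sign in every setting. With library totals alone miR-26a-5p turned to -0.11, miR-26b-5p to -0.57 and miR-101-3p to -0.14, and edgeR called 51 miRNAs higher and 213 lower, with 0 and 6 of the listed PRC2-related miRNAs (at an adjusted p under 0.05). Upper quartile scaling gave 0.66 for miR-101-3p, which was then called, and -0.38 for miR-26a-2-3p, which was not. Without the filter 1582 rows were tested in place of 506. There the miR-26a-5p call was lost at 0.27 and miR-26b-5p turned to -0.19. Of the 1582 rows, 117 were called higher and 162 lower, and 3 of the 13 rows of the list were lower. DESeq2 lost miR-26a-2-3p (-0.64) and miR-26b-3p (-1.26), turned miR-26b-5p to -0.047 and called 2 of the list lower, and limma-voom lost miR-26a-2-3p (-0.59). With the batch term, under which its batch holds 1 control, replicate 3, 76 miRNAs were higher, 55 lower, and 0 of the list higher, and the calls of miR-26a-5p (0.28), miR-26a-2-3p (-0.67) and miR-26b-3p (-1.06) were lost, while miR-26b-5p stood at -0.062. The cause of these changes was not tested.

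The replicate block lost miR-26a-2-3p (-0.60) and changed no other member's call. Deviations of libraries with the same number correlated at only 0.0386, 0.0996 and 0.0247, so the numbers were not taken as pairs.

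With 1 library left out, the log2 fold changes ranged from 0.42 to 0.50 for miR-26a-5p, which stayed called each time, from -0.038 to 0.023 for miR-26b-5p, from -0.81 to -0.45 for miR-26a-2-3p, from -1.39 to -0.92 for miR-26b-3p and from 0.29 to 0.62 for miR-101-3p. The list gave 2 to 3 higher and 1 to 2 lower, the latter with 2 without control replicate 1 or 2. Of all 517 to 532 miRNAs tested in these fits, 101 to 125 were called higher and 92 to 116 lower. The ratio of miR-26a-5p to miR-101-3p, left out in this way after the data had been seen, ran from -0.18 to 0.21 in log2, with -0.13 without RARαS77A replicate 2. miR-101-5p gave no value in any setting that filters. Counts of 4 to 62 per library limit the passenger strands of miR-26, and 0 to 5 those of miR-101-5p.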
